A study of Homo sapiens with 22 samples.

Results

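E2F3 occupancy was compared between control 22Rv1 cells (Ctrl) and 22Rv1 cells overexpressing the linker histone H1-10 (H1-10 OE), from the list of peaks called on each of the 2 ChIP-seq libraries. 22Rv1 is an established human prostate cancer cell line, and chromatin immunoprecipitation followed by sequencing (ChIP-seq) maps where a protein sits on DNA. The members are the 22988 regions of the Ctrl list and the 4296 regions of the H1-10 OE list, 27284 of the 291055 regions in the 8 lists used. A Ctrl region that overlapped an H1-10 OE region by at least 1 bp is called kept, a Ctrl region without such an overlap lost, and an H1-10 OE region without one gained. The names describe presence in a list and no test stands behind them, since each group had 1 library. Pol2S5p lists from the same conditions, Pol2S5p lists after siCtrl, a control siRNA, or siE2F3, which targets E2F3, and H3K27me3 lists from Ctrl and H1-10 OE served for comparison. The sample labels give siCtrl and siE2F3 no H1-10 status, while the peak names in both lists carry H1FXOE, and H1FX is an older symbol of H1-10 in the RefSeq gene table. No label gives the vector, the promoter or the number of clones behind the overexpression. Gene names were not assigned, because an annotation of the hg19 build was not used here, and loci are given by position on hg19. For the same reason 22Rv1 was not checked against its marker genes, and the gene loci that keep, lose or gain E2F3 are described as regions.

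E2F3 is a transcription factor that binds DNA together with a DP partner and is held in check by the retinoblastoma protein; it is known for switching on genes of DNA replication and cell cycle entry. Most of its known binding lies at promoters, where initiating RNA polymerase II carries phosphate on serine 5 of its tail (Pol2S5p). H1-10 is a linker histone variant, one of the proteins that bind the nucleosome where DNA enters and leaves and help to compact chromatin. H3K27me3 is the histone mark that Polycomb complexes place on silenced genes.

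The first comparison asks which regions carried E2F3 in both conditions. In all, 595 Ctrl regions were kept and 22393 were lost, which is 97.4% of the Ctrl list (95% Wilson interval 97.2 to 97.6%). From the other side, 605 H1-10 OE regions matched the kept ones and 3691 were gained, 85.9% of that list (84.8 to 86.9%). The lost share depends on list length. The H1-10 OE list had 4296 regions against 22988, and matches were nearly 1 to 1. Most Ctrl regions therefore had to be called lost. With only the 4296 strongest Ctrl regions, 418 were kept and 3878 lost. The same call on Pol2S5p found 41.0% of the Ctrl regions lost and 42.8% of the H1-10 OE regions gained, and on H3K27me3 77.6% and 97.2%. The Pol2S5p lists were closer in length, with 35493 and 40626 regions, than the H3K27me3 lists, with 2540 and 18395. The E2F3 lists also differed as lists: 86.0% of Ctrl regions had a -log10 q of 5 or more, against 57.4% in H1-10 OE, and the median width was 578 and 381.5 bp. Read depth is unknown here, and the part of depth or enrichment in the number of lost regions was not tested. Intervals cover counting error only, and neighbouring regions are not independent.

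The strongest Ctrl sites were mostly kept. Of the 50 Ctrl regions with the highest -log10 p, 46 overlapped an H1-10 OE region, and of the top 100, 92 did (85.0 to 95.9%). The share was 53.2% of the top 500 (48.8 to 57.5%), 33.3% of the top 1000 (30.4 to 36.3%) and 18.8% of the top 2000 (17.1 to 20.5%). It did not decline gradually below that: in each of the other 9 deciles of the Ctrl list between 0.565% and 1.44% of the regions were kept. Accordingly 388 of the 595 kept regions came from the strongest decile. The H1-10 OE list was unlike this, since 25 of its top 100 regions (17.5 to 34.3%) and 149 of its top 500 (29.8%) were Ctrl regions, against 605 of all 4296.

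**Figure D1:**
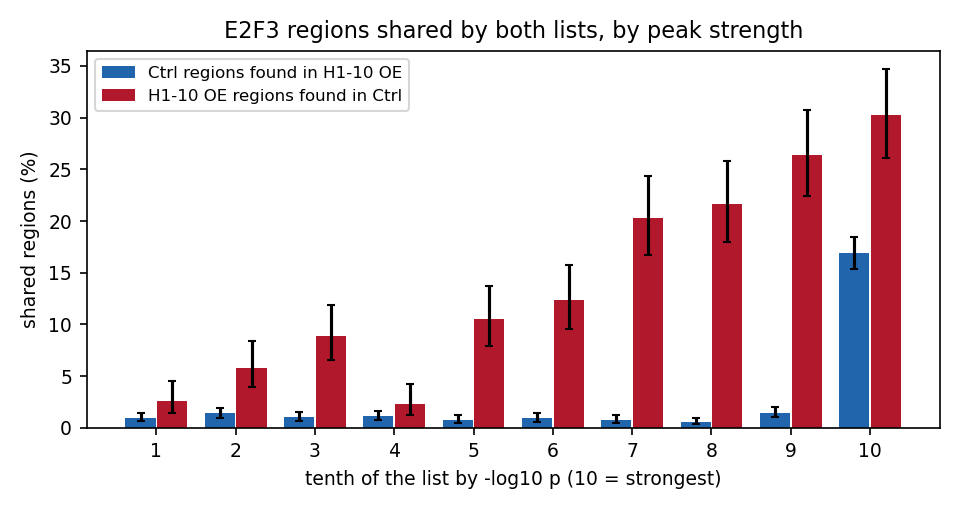
Share of E2F3 regions found in the other list (y axis, %) by decile of peak strength (x axis, ranked by -log10 p within each list, 10 strongest), for Ctrl regions (blue) and H1-10 OE regions (red), with 95% Wilson intervals as bars. The blue bars stay at or below 1.44% until the strongest decile, where 16.9% of the Ctrl regions are shared; the red bars reach 30.2% in the strongest decile. Ties in -log10 p are ordered by position, which affects the red bars of the lower deciles.

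The 10 kept regions with the highest -log10 q in Ctrl had fold enrichments over the caller's background of 85.7 to 148 in Ctrl. Their H1-10 OE regions had folds of 6.44 to 19.2 and a -log10 q of 31.4 to 122. Each list's fold stands on its own background, so the values are set side by side and not subtracted. At the leading kept region, chr1:26797979-26800043, E2F3 had a fold of 148 in Ctrl and a -log10 q of 667. The H1-10 OE region there, chr1:26799238-26799752, had a fold of 7.75 and a -log10 q of 40.8, and its summit lay 18 bp from that of Ctrl. The second, chr6:52148960-52150129, had a fold of 138 in Ctrl and of 19.2 in H1-10 OE, the highest of these 10 in H1-10 OE. After these came chr11:9594251-9595582, with folds of 140 and 6.44, and chr20:5099457-5100989, with folds of 135 and 8.08. At chr6:90539089-90539928 the folds were 132 and 10.7, and at chr10:103911359-103912399 they were 124 and 10.3. Pol2S5p covered all 10 in its 4 lists, and the summits of the E2F3 pairs lay between 1 and 37 bp apart.

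Across all kept regions the H1-10 OE region was usually a short stretch around the Ctrl summit. Median widths were 942 bp (Ctrl) and 382 bp (H1-10 OE), and the H1-10 OE region lay wholly inside the Ctrl region at 457 of 595 (76.8%). Summits lay a median of 28 bp apart (quartiles 11 and 74.5 bp), and 483 pairs (81.2%) were within 100 bp. As a description across the 595 pairs, which share their 2 libraries, Spearman's rho of the -log10 p values was 0.43, while that of the folds was -0.17. The kept regions also included 29 with a Ctrl fold under 5.

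The lost regions covered 15.0 Mb, against 0.603 Mb for the kept ones, and were shorter, with a median width of 570 bp. Their median fold was 8.85 (quartiles 5.88 and 15.3), and that of kept regions was 37.5 (12 and 56.7). Strong sites were lost too. The region chr1:160067856-160069201 had a fold of 77.2, and the nearest E2F3 region of H1-10 OE lay 1328 kb away. At chr12:112450650-112452085, with a fold of 65.1, that distance was 1510 kb, and at chr3:196729446-196730853, with a fold of 79.7, it was 196 kb. The lost region chr8:124428398-124429467, with a fold of 56.3, was 19.2 kb from the nearest H1-10 OE region; the kept region chr8:124408069-124409541, with a fold of 85.7, lies next to it, so 2 strong neighbours fell into different classes. Few lost regions were near misses: 89 of 22393 (0.397%) lay within 1 kb of an H1-10 OE region and 300 (1.34%) within 5 kb, and the median distance was 461 kb. Such distances depend on list length, and the H1-10 OE list is short. From gained regions to the longer Ctrl list, 1.30% lay within 1 kb and 5.15% within 5 kb, with a median of 79.7 kb.

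Of the 10 lost regions with the highest -log10 q, 8 overlapped Pol2S5p in all 4 lists. The exceptions were chr1:156186196-156186678, which lay 2.66 kb from Pol2S5p of Ctrl and overlapped the other 3 lists, and chr11:114049587-114051115. The latter, with an E2F3 fold of 74.5, overlapped Pol2S5p of Ctrl, while the nearest Pol2S5p region lay 20.2 kb away in H1-10 OE, 79.2 kb in siCtrl and 18.5 kb in siE2F3. E2F3 and Pol2S5p were therefore both absent from the H1-10 OE lists at this site. At chr19:4908805-4910407, with a fold of 87.4, and chr1:51433634-51435302, with a fold of 81.6, Pol2S5p was present in each list.

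The gained regions had a median width of 381 bp and a median fold of 6.33 (quartiles 5.07 and 8.07). The H1-10 OE regions shared with Ctrl had about the same median width, 382 bp, and a lower median fold of 5.07, but a higher median -log10 q, 10.1 against 5.39. Some were strong. At chr7:80505694-80507077 E2F3 of H1-10 OE had a fold of 77.8, and the nearest Ctrl E2F3 region lay 6.85 kb away. At chr8:37159659-37160847 the fold was 65.2 and the distance 87.2 kb, and at chr2:210360363-210361575 they were 58.9 and 71.2 kb. The 10 gained regions with the highest -log10 q all overlapped Pol2S5p of H1-10 OE and none overlapped Pol2S5p of Ctrl, which was 10.6 to 2009 kb away. In siCtrl 9 of the 10 carried Pol2S5p and in siE2F3 2 did. At chr4:112804476-112805354, with a fold of 50.0, Pol2S5p lay 10.6 kb away in Ctrl and 261 kb away in siE2F3, and overlapped in H1-10 OE and siCtrl. The region chr5:27510781-27511995, with a fold of 49.4, was the one absent from siCtrl; the nearest Pol2S5p region of Ctrl was 2009 kb away. The region chr4:19825037-19826191, with a fold of 48.8, stood 1.55 kb from a Ctrl E2F3 region and 368 kb from Pol2S5p of Ctrl. A pair on chromosome 7, chr7:114293081-114294438 and chr7:114169976-114170832, had folds of 43.6 and 43.1.

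**Figure D2:**
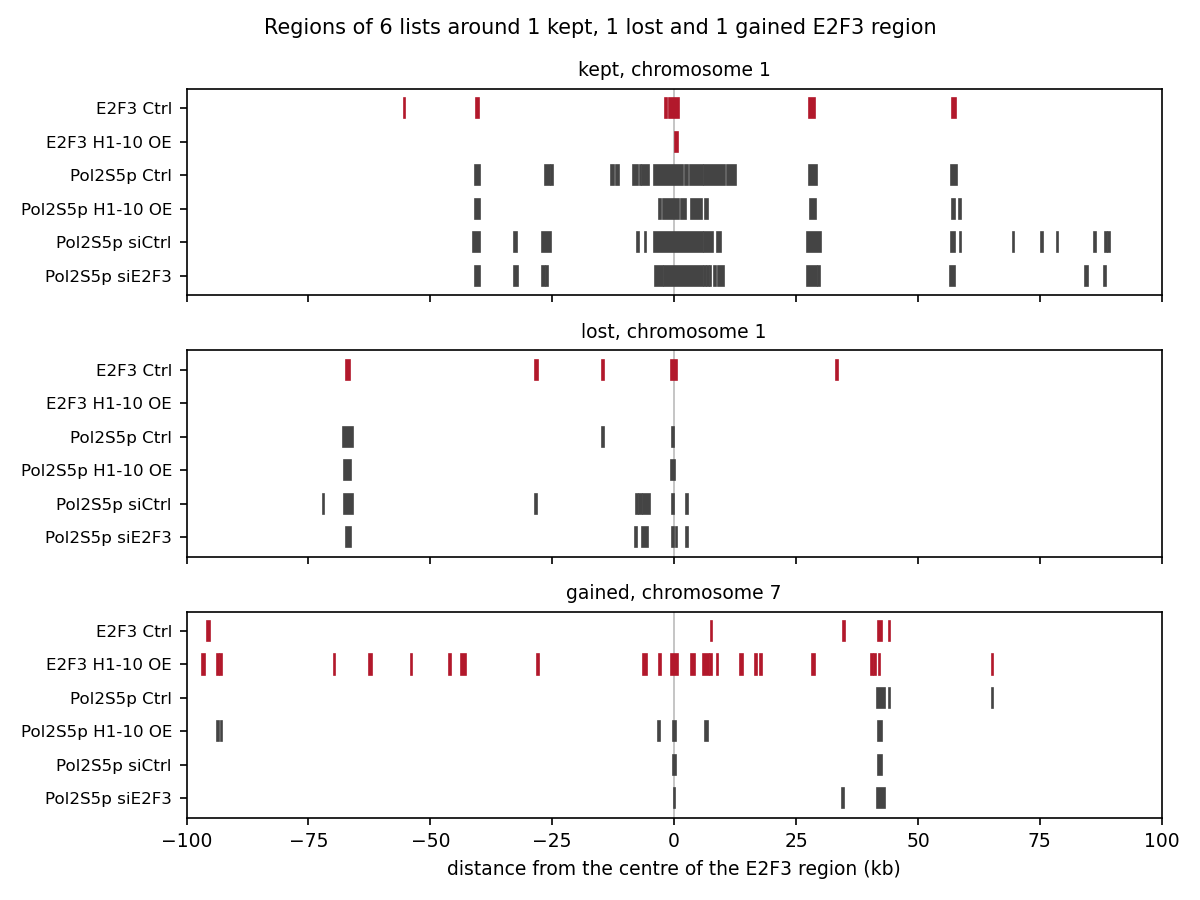
Regions of the 2 E2F3 lists (red) and the 4 Pol2S5p lists (dark grey) within 100 kb of a kept, a lost and a gained E2F3 region of high significance (x axis, distance from the centre of the E2F3 region in kb; each block is a region drawn to scale with a thin outline). Around the gained region on chromosome 7 there are 24 E2F3 regions in H1-10 OE and 5 in Ctrl. This place is dense in gained regions, with 40 between 80 and 81 Mb. Its -log10 q equals that of the gained region on chromosome 8 that heads the class. Around the lost region on chromosome 1 there are 5 in Ctrl and no bar in H1-10 OE. Pol2S5p overlaps that lost region in each of the 4 lists.

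The next comparison measures how far each class lay from Pol2S5p, from region edge to region edge, with overlap counted as distance 0. Kept and lost regions were mostly at Pol2S5p in both conditions, and gained regions mostly were not. In the Pol2S5p list of Ctrl, 80.5% of kept regions overlapped a region (77.1 to 83.5%) and 81.3% lay within 1 kb. Of the lost regions 67.7% overlapped (67.0 to 68.3%), 72.3% lay within 5 kb and 83.7% within 50 kb. Gained regions lay a median of 138 kb from Pol2S5p of Ctrl (quartiles 42.4 and 320 kb), with 2.0% overlapping (1.60 to 2.51%), 4.71% within 5 kb and 28.1% within 50 kb. Over all H1-10 OE regions, 13% overlapped Pol2S5p of Ctrl.

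Against Pol2S5p of H1-10 OE the gained regions lay closer, at a median of 30.1 kb (quartiles 1.19 and 115 kb). Of these, 800 of 3691 overlapped a region (21.7%, 20.4 to 23%), 30.9% lay within 5 kb and 58.8% within 50 kb. Kept and lost regions overlapped it at 82.4% (79.1 to 85.2%) and 64.2% (63.5 to 64.8%). Among the regions that did not overlap, the median gap to Pol2S5p of H1-10 OE was 55.2 kb for kept, 37.0 kb for lost and 55.8 kb for gained regions. The median gap to Pol2S5p of Ctrl was 102 kb, 51.2 kb and 143 kb in the same order. In the siCtrl list 8.10% of gained regions overlapped (7.26 to 9.03%) with a median distance of 60.0 kb, and in siE2F3 4.77% (4.13 to 5.50%) with a median of 70.2 kb. The siCtrl list is the longest of the 4, with 83650 regions against 40626 in H1-10 OE.

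**Figure D3:**
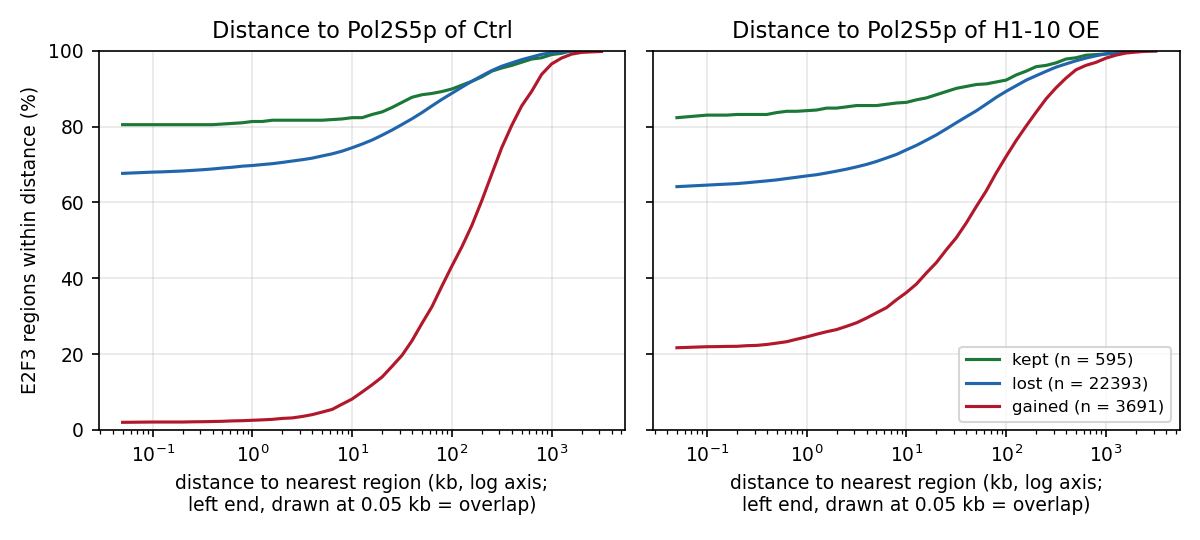
Cumulative share of kept (green), lost (blue) and gained (red) E2F3 regions (y axis, %) within a given distance of the nearest Pol2S5p region (x axis, kb, log scale) of Ctrl (left) and H1-10 OE (right); the left end of each curve is the share that overlaps. The red curve starts at 2.0% on the left panel and at 21.7% on the right, while the green and blue curves start at 80.5 and 67.7% on the left and at 82.4 and 64.2% on the right.

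Joining both conditions, Pol2S5p was present in both lists at 453 kept regions (76.1%), 12743 lost regions (56.9%) and 49 gained regions (1.33%). It was in Ctrl alone at 26 kept, 2408 lost and 25 gained regions. It was in H1-10 OE alone at 37 kept, 1624 lost and 751 gained regions, and in neither at 79, 5618 and 2866. Thus 10.8% of the lost E2F3 regions were places where the Pol2S5p list also had a region in Ctrl and none in H1-10 OE. The share over all Ctrl E2F3 regions, 10.6%, cannot serve as a comparison, since 97.4% of these regions were lost ones. Among the kept regions the share was lower, at 4.37% (2.999 to 6.326%). Kept regions were stronger, and the part of strength in this difference was not tested. The 751 gained regions with Pol2S5p in H1-10 OE alone had a median fold of 8.46 and a median width of 526 bp. For the 2866 without Pol2S5p in either condition these values were 5.70 and 359 bp.

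The Pol2S5p regions met by the 3 classes differed. Gained E2F3 regions met 794 Pol2S5p regions of H1-10 OE, of which 748 (94.2%, 92.4 to 95.6%) were absent from Pol2S5p of Ctrl; among all Pol2S5p regions of H1-10 OE this share was 42.8%. Lost E2F3 regions met 13437 Pol2S5p regions of H1-10 OE with 11.3% absent from Ctrl (10.7 to 11.8%), and kept ones met 496 with 7.46% absent (5.46 to 10.1%). In the other direction, 41.0% of all Pol2S5p regions of Ctrl were absent from H1-10 OE. Among those met by lost E2F3 regions this share was 14.4% (13.8 to 15.0%). For kept ones it was 5.59%, and for the 65 met by gained ones 33.8%. By -log10 p within the Pol2S5p list of H1-10 OE, the strongest Pol2S5p region met stood at a median percentile of 89.5 for kept, 82.5 for lost and 58.9 for gained E2F3 regions. Where they overlapped, the E2F3 summit lay a median of 74 bp from the nearest Pol2S5p summit in gained regions (quartiles 32.8 and 142 bp). It was 142 bp in lost regions (68 and 266 bp) and 162 bp in kept regions (76.3 and 310 bp). Region width limits such distances, and the Pol2S5p regions met had median widths of 470, 1231 and 1605.5 bp in the same order. With Pol2S5p of Ctrl the order differed, at 285.5 bp for 74 gained, 126 bp for lost and 156 bp for kept regions.

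Gained sites with Pol2S5p were seen again in the siRNA libraries less often than lost or kept ones. Of the 800 gained regions at Pol2S5p of H1-10 OE, 253 also overlapped siCtrl (31.6%, 28.5 to 34.9%) and 144 siE2F3 (18.0%, 15.5 to 20.8%). For lost regions at Pol2S5p of H1-10 OE these shares were 99.0% and 97.6%, and for kept ones 94.7% and 91.6%. The lost and kept regions met stronger Pol2S5p, at median percentiles of 82.5 and 89.5 against 58.9 for gained ones. The part of that strength was not tested. Of all Pol2S5p regions of H1-10 OE absent from Ctrl, 76.9% (76.3 to 77.5%) overlapped siCtrl. Between the siRNA lists themselves, 30.6% of siCtrl regions had no overlap in siE2F3 and 22.9% of siE2F3 regions none in siCtrl. In the gained set, 120 regions (3.25%) overlapped H1-10 OE and siCtrl but not siE2F3, and 11 (0.298%) overlapped H1-10 OE and siE2F3 but not siCtrl. The imbalance was not particular to gained regions. These numbers were 227 (1.01%) and 35 (0.156%) for lost and 17 (2.86%) and 2 (0.336%) for kept regions. The processing label in the peak names is shared by the E2F3, siCtrl and siE2F3 lists and differs from that of the Pol2S5p lists of Ctrl and H1-10 OE; the part of processing in these overlaps was not tested.

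Strength and Pol2S5p went together within each class. Among lost regions the share at Pol2S5p of Ctrl was 42.7% in the weakest decile (40.7 to 44.8%) and 96.7% in the strongest (95.8 to 97.3%). Among kept regions it was 25% in the weakest decile (15.8 to 37.2%) and 98.3% in the strongest (91.1 to 99.7%). Gained regions had 5.68% at Pol2S5p of H1-10 OE in the weakest decile (3.74 to 8.52%), 41.7% in the ninth (36.8 to 46.8%) and 65.6% in the strongest (60.6 to 70.2%). Against Pol2S5p of Ctrl the same gained deciles gave 2.70%, 0.542% and 1.36% (0.580 to 3.13%).

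**Figure D4:**
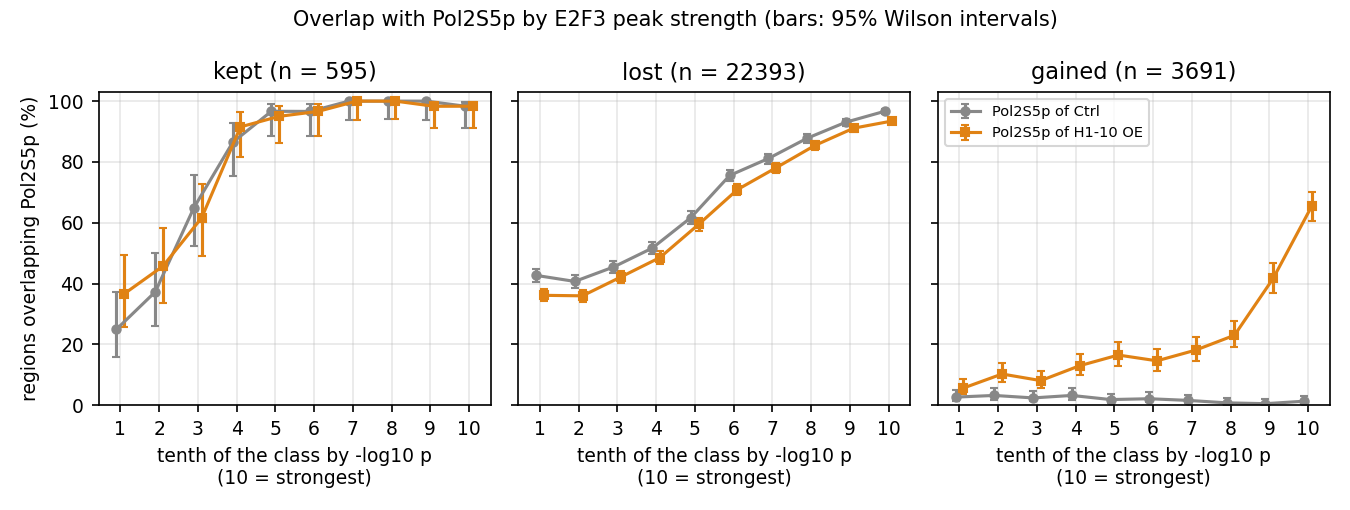
Share of E2F3 regions that overlap Pol2S5p (y axis, %) by decile of strength within the class (x axis, ranked by -log10 p, 10 strongest), for kept, lost and gained regions, with Pol2S5p of Ctrl in grey, Pol2S5p of H1-10 OE in orange and 95% Wilson intervals as bars. In gained regions the orange points climb from 5.68% to 65.6% while the grey ones stay at or below 3.25%.

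Because kept regions were stronger, kept and lost regions were also compared within deciles of the whole Ctrl list. Over all regions the kept share at Pol2S5p of Ctrl was 12.8 percentage points above the lost share (Newcombe interval 9.42 to 15.9). In the strongest decile the shares were 97.4% of 388 kept and 97.0% of 1911 lost regions, a difference of 0.41 points (-1.80 to 1.86). In each of the other 9 deciles the kept share was the lower one, with 13 to 33 kept regions per decile. The difference was -42.0 points in the sixth decile (-58.3 to -20.7), and in 6 of these 9 the interval included 0. The pooled difference at Pol2S5p of Ctrl was therefore not seen within these deciles. A decile matches strength only roughly: 92 of the top 100 Ctrl regions were kept, against 388 of the 2299 in the strongest decile. With Pol2S5p of H1-10 OE the strongest decile gave 97.9% of kept and 93.8% of lost regions, a difference of 4.17 points (1.97 to 5.72). The weaker deciles went both ways. In the first to the third the kept share was the higher one, by 4.98, 1.37 and 2.71 points. In the fourth to the ninth decile the kept share was again the lower one, with a difference of -33.7 points in the sixth (-51.2 to -12.6). Of the 9 weaker deciles, the sixth alone had an interval that left out 0. In the H1-10 OE list, regions shared with Ctrl were at Pol2S5p of Ctrl more often than gained ones in each of the 10 deciles, with intervals above 0. At Pol2S5p of H1-10 OE this held in 9 of the 10; the exception was the fourth, with 0 of 10 shared and 9.52% of 420 gained regions, a difference of -9.52 points (-12.7 to 18.3). In the strongest decile of that list 83.8% of 130 shared and 1.33% of 300 gained regions were at Pol2S5p of Ctrl, and 96.2% and 68.3% at Pol2S5p of H1-10 OE.

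Seen from the polymerase, both lost and kept E2F3 were most frequent at strongly occupied Pol2S5p regions. Lost regions prevailed there as in the whole Ctrl list, of which they make up 97.4%. Of the strongest decile of Pol2S5p regions in Ctrl, 92.9% carried a lost E2F3 region (92.0 to 93.7%) and 6.03% a kept one (5.29 to 6.86%); a region can carry both. In the weakest decile these shares were 3.18% and 0.141%, and over all Pol2S5p regions of Ctrl 38.7% and 1.36%. Gained E2F3 was most frequent at Pol2S5p of middle strength: in H1-10 OE it met 0.812% of the weakest decile (0.579 to 1.14%), 5.19% of the seventh (4.55 to 5.92%) and 0.541% of the strongest (0.358 to 0.819%). The definition limits this pattern, since a gained region overlaps no Ctrl E2F3 region. Lost E2F3 regions met 91.7% of the strongest decile of that list and 35.2% of the seventh. The part of this limit in the pattern was not tested.

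Away from Pol2S5p, 36 kept (6.05%), 2381 lost (10.6%) and 1412 gained regions (38.3%, 36.7 to 39.8%) lay over 50 kb from Pol2S5p of both conditions. The strongest such lost region, chr6:94649872-94650640, had a fold of 50.1 and stood 520 kb from Pol2S5p of Ctrl and 303 kb from that of H1-10 OE. The next, chr12:119005888-119006760, had a fold of 39.4, and H3K27me3 of H1-10 OE lay 2.29 kb from it. The lost region chr11:5949356-5949967, with a fold of 43.5, overlapped H3K27me3 of H1-10 OE. Among kept regions far from Pol2S5p, chr2:206750193-206750736 led with folds of 31.9 in Ctrl and 5.26 in H1-10 OE. It was followed by chr10:78307046-78307609, with folds of 15.0 and 4.84. Also among the 5 were chr10:42385083-42385345 and chr6:58778148-58779396, whose Ctrl folds of 2.62 and 1.94 lie below the lower quartile of 5.91 of the list although their -log10 q was 21.5 and 17.9. Their folds in the H1-10 OE list were 17.7 and 4.25, each the larger value of its pair, unlike at the other kept regions named. Of the 5 gained regions that led this group, 3 lay together on chromosome 16, chr16:46388165-46390331, chr16:46390684-46393381 and chr16:46395004-46395542, with folds of 27.4, 23.7 and 36.7. No filter for high-background places was used on the E2F3 lists, and the part of such places was not tested.

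The classes were spread differently over the chromosomes. Chromosome 13 held 14.4% of the gained regions (13.3 to 15.6%), 2.10% of the lost (1.92 to 2.30%) and 3.03% of the kept ones (1.92 to 4.73%). On that chromosome 531 regions were gained and 470 lost, the one place among chromosomes 1 to 22 and X where gained regions outnumbered lost ones. Chromosome 19 was the reverse, with 1644 lost, 29 kept and 3 gained regions. On chromosomes 16, 17, 20 and 22 the gained regions numbered 29, 40, 13 and 4, beside 941, 1296, 572 and 547 lost ones. The share of Ctrl regions that were kept varied less, from 1.26% on chromosome 16 (0.722 to 2.19%) to 4.41% on chromosome 6 (3.39 to 5.72%).

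Distance to Pol2S5p differed by chromosome as well. The 531 gained regions of chromosome 13 lay a median of 136 kb from Pol2S5p of H1-10 OE and 7.16% overlapped it (5.26 to 9.67%). On the other chromosomes together, a split made after the data were seen, the median was 23.1 kb and 24.1% overlapped (22.7 to 25.6%). Against Pol2S5p of Ctrl the medians were 218 kb on chromosome 13 and 120 kb elsewhere. On chromosome 17, 47.5% of the 40 gained regions overlapped Pol2S5p of H1-10 OE. Copy number of the chromosomes in these cells is not known from the lists, and its part in the counts was not tested.

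**Figure D5:**
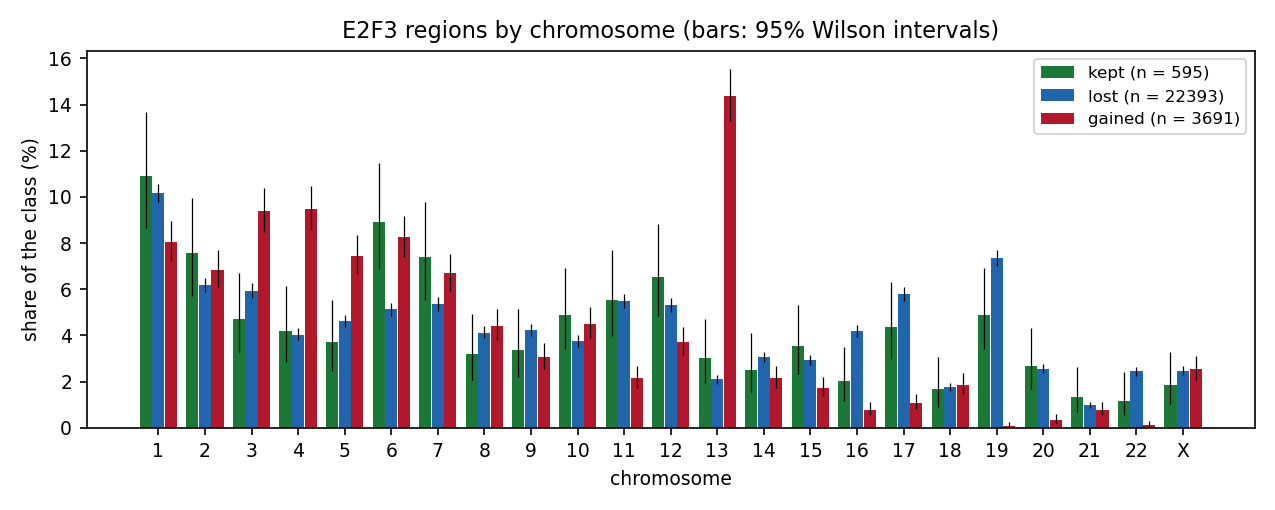
Share of each class of E2F3 region (y axis, % of the class) on chromosomes 1 to 22 and X (x axis), for kept (green), lost (blue) and gained (red) regions, with 95% Wilson intervals as lines. The red bar of chromosome 13 reaches 14.4% beside 2.10% for lost regions, and on chromosome 19 lost regions reach 7.34% beside 0.0813% for gained ones.

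H3K27me3 lay near few E2F3 regions of any class. Within 5 kb of H3K27me3 of H1-10 OE were 1177 lost regions (5.26%, 4.97 to 5.56%), 4 kept (0.672%, 0.262 to 1.72%) and 4 gained (0.108%, 0.0422 to 0.278%). For H3K27me3 of Ctrl these numbers were 666 lost (2.97%), 1 kept and 2 gained. Median distances to H3K27me3 of H1-10 OE were 435 kb for lost, 618 kb for kept and 2073 kb for gained regions. Direct overlap with H3K27me3 of H1-10 OE was found at 595 lost regions (2.66%, 2.45 to 2.88%), and at 2 kept and no gained regions (0 of 3691 allows up to 0.104%). The H3K27me3 list of H1-10 OE is the longer of the pair, with 18395 regions against 2540.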

How the data were processed

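Peak lists of single ChIP-seq libraries were analysed. The submitters' processing notes name fastp, FastQC, Bowtie and the hg19 build; tool versions, peak caller and inputs are not stated in these notes (not given in the sources used here). The deposited lists hold for each peak a score, a fold enrichment (a ratio to the caller's background), and -log10 p and -log10 q of the authors' caller, per library and not pooled. No region in the 8 lists had a -log10 q below 1.30. The other 14 of the 22 samples, 10 inputs and 4 H1-10 ChIP-seq libraries made with a Flag antibody, were not analysed here. Depth is unknown, so no interval for a single peak could be given.

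Lists were used as deposited, with coordinates printed 1-based. Overlap was at least 1 bp; distances run between region edges. Intervals are 95% Wilson intervals for a share and Newcombe's for a difference; with 1 library per group no p-value was computed. Deciles are 10 equal classes of a list or class ordered by -log10 p. The regions named were the 10 of highest -log10 q per class, and the 5 of highest -log10 q over 50 kb from Pol2S5p of both conditions. Members and rules were chosen with earlier results of these data known. The planned gene start windows, 10 gene lists and cell markers were not tested, since the RefSeq tables in use are on GRCh38 and not hg19. The overlap and distance code was tested on simulated lists and against bedtools 2.31.1. Python 3.11.15 was used with scipy 1.17.1, pandas 2.3.3, matplotlib 3.10.9 and numpy 2.4.6.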

Additional observations from a re-analysis of the deposited data

How the results depend on the processing

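No paired analysis was possible because each group has 1 library, and for the same reason no library could be left out. The order of the classes, with kept and lost regions at Pol2S5p far more often than gained ones, held under each setting tried. Requiring the summit inside the other list's region, or using autosomes only, moved none of the 11 values beyond its interval or, for the counts, 1.5 times. With -log10 q of at least 5 in every list, 1985 regions were gained; at Pol2S5p of Ctrl and H1-10 OE were 84.3 and 86.6% of kept, 69.3 and 65.4% of lost and 1.16 and 24.2% of gained regions, with gained medians of 170 and 40.2 kb. With equal numbers of E2F3 peaks, 4296 per list, 3878 were lost; the shares became 96.9 and 96.9% of kept and 95.3 and 92.8% of lost regions, and 3.85% of gained ones at Ctrl. With 50% reciprocal overlap 176 regions were kept, 58.5 and 62.5% of them at Pol2S5p; gained regions had 11 and 28.9% and medians of 108 and 20.5 kb. This rule drops pairs of unequal width, and kept H1-10 OE regions were narrower in 83.2% of pairs. Under it the kept share fell below that of the lost regions, 68.1 and 64.6%. With siCtrl in place of H1-10 OE for Pol2S5p, 70.4% of lost and 8.10% of gained regions overlapped, and the gained median was 60.0 kb; the cause was not tested. Measured from the E2F3 summit, lost regions gave 65.7 and 61.5% and gained ones 20.05% at H1-10 OE. Without chromosome 13, added after the data were seen, gained medians were 120 and 23.1 kb and 24.1% overlapped H1-10 OE. The 4 alternatives for gene loci were not run.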

Other observations

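Many gained E2F3 regions stood close to another of their class, as many lost ones did. The median gap from a gained region to the nearest other gained one was 29.7 kb (quartiles 3.42 and 177 kb). It was 18.9 kb for the 22393 lost and 1092 kb for the 595 kept regions. Within 5 kb of a neighbour of the same class lay 29.4% of gained, 29.3% of lost and 5.04% of kept regions. In 1-Mb windows, chosen after the data were seen, 77 windows with 10 or more gained regions held 1222 of the 3691 (33.1%), and 15 of these windows lay on chromosome 13. On chromosome 13, 67 to 68 Mb held 102 gained regions over 49.8 kb, 3 of them at Pol2S5p of H1-10 OE, and 1 lost region. The windows from 68 to 69 Mb and from 72 to 73 Mb held 48 each, and that from 62 to 63 Mb held 47. On chromosome 8 the window from 37 to 38 Mb differed, with 16 of its 20 gained regions at Pol2S5p of H1-10 OE and none at Pol2S5p of Ctrl. Chromosome 5 between 124 and 125 Mb had 25 gained regions, 11 of them at Pol2S5p of H1-10 OE.

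Lost regions were densest elsewhere. On chromosome 19, 1 to 2 Mb held 94 lost regions, 72 of them at Pol2S5p of Ctrl and 66 at Pol2S5p of H1-10 OE, while chromosome 17 had 76 between 79 and 80 Mb, with 67 and 61. None of the 10 windows with the most lost regions held a gained one. Kept regions were scattered, with at most 6 in a window. The H1-10 OE list also held 2 gained regions on the mitochondrial chromosome, with folds of 2.05 and 2.71, where the Ctrl list had none.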
